A study of Rattus norvegicus with 6 samples.

Results

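The account below concerns 73 genes whose mRNAs were predicted as targets of microRNAs (miRNAs) that differed in signal between exosome-treated and untreated rat cardiac stem cells (CSCs). They include genes for kinases of the MAP kinase, PI3K-AKT-mTOR, calcium/calmodulin and protein kinase A, C and D families, subunits of the AMP-activated kinase, cyclins, cyclin-dependent kinases, Cdc proteins, Bcl2 relatives and caspases. Their symbols also brought in inhibitors, scaffolds, adaptors and some proteins of other function, named below. The 73 are all genes of the authors' deposited miRanda target table whose symbol begins with Mapk, Map2k, Map3k, Map4k, Pik3, Akt, Mtor, Camk, Prk, Ccn, Cdk, Cdc, Bcl2 or Casp followed, where the family uses one, by its letter or number. The table holds 4260 genes, so the 73 are 1.71% of it. Symbols alone chose the genes. The table itself, however, covers only the 22 miRNAs that the authors listed as differential on these same arrays, so the directions of those miRNAs are not independent evidence. Neither mRNA nor protein of the 73 genes was measured: the measured values are those of the miRNAs, and the link to each gene is a prediction from sequence.

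The exosome-treated group consisted of 3 arrays of CSCs, progenitor cells of heart tissue taken from Sprague Dawley rats at 4 weeks of age, that had been kept for 3 days in medium with exosomes, small extracellular vesicles, of mesenchymal stem cells from bone marrow. The untreated group consisted of 3 arrays of CSCs from the same strain, tissue and age without exosomes. The exosomes came from cells cultured to passage 4 and were collected with a precipitation reagent, and neither group received that reagent without vesicles. Separate cultures or animals are not named in the labels, so p-values measure only array-to-array spread, possibly technical. Of 28 marker miRNAs of heart muscle, blood, endothelium, fibroblasts, epithelium, liver and neurons, 0 are among the 22 miRNAs that the files name. Any signals of these markers among the other miRNAs of the array were not looked up, so the labelled cell type was not checked here.

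A miRNA guides an Argonaute protein to mRNAs that pair with it, mostly through its seed, the bases at positions 2 to 8 from its 5′ end, and pairing usually lowers the output of the mRNA. MAP kinase cascades run from Map4k and Map3k kinases through Map2k kinases to the terminal kinases ERK, JNK and p38, while PI3K, AKT and mTOR relay growth factor and nutrient signals. Cyclins switch on cyclin-dependent kinases to move a cell through its division cycle, and Cdk inhibitors hold it back. Bcl2 relatives guard the mitochondrial membrane upstream of the caspases that execute apoptosis. In heart progenitors these routes are studied for their part in proliferation and survival.

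Of the 22 listed miRNAs, 20 were predicted for at least 1 of the 73 genes, the exceptions being miR-532-5p and miR-872-3p. The sequences of those on which most of the predictions rest are shown 5′ to 3′ as the authors' deposited table gives them, with the seed in capitals, because the sites printed further down can be read against them. RefSeq holds the same sequence under the same name for 20 of the 22. The names miR-328a-5p and miR-362-5p were not found there, so the sequences of these miRNAs were not compared.
miR-503-5p: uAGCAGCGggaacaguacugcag
miR-362-5p: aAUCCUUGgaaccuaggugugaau
miR-500-5p: aAUCCUUGcuaucugggugcuuag
miR-330-3p: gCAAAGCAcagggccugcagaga
miR-181b-5p: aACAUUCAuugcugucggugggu
miR-181c-5p: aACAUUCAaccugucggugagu
miR-760-3p: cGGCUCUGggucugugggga
miR-326-5p: gGGGGCAGggccuuugugaa
miR-328a-5p: gGGGGGCAggaggggcuca
miR-702-5p: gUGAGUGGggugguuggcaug
miR-207: cUUCUCCUggcucuccucccuuu
miR-362-5p and miR-500-5p share the seed AUCCUUG, and miR-181b-5p and miR-181c-5p share ACAUUCA. The seed GGGGCAG of miR-326-5p occurs in miR-328a-5p at positions 3 to 9, 1 base further in, so the pair read nearly the same stretch of an mRNA.

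Treated replicate 3 stood apart from its group. Over the 728 mature miRNAs it correlated at 0.9803 and 0.9807 with the other treated arrays, which correlated at 0.994 with each other, and at 0.986, 0.9879 and 0.9882 with the 3 untreated arrays. Values are therefore given with it and, further down, for some miRNAs without it.

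After exosome treatment 15 of these 20 miRNAs had a higher mean signal than in untreated CSCs and 5 had a lower one. The 15 are called higher-signal and the 5 lower-signal miRNAs from here on, as a description of the array means. Differences (exosome minus untreated, in log2) ran from 0.70 for miR-106b-3p to 2.16 for miR-147 among the higher-signal miRNAs, with a median of 0.86, and among the lower-signal ones the furthest was -2.70 (miR-326-5p) and the nearest to 0 was -0.59 (miR-702-5p), with a median of -1.30. Over all 728 mature miRNAs of the array the median difference was 0.08. The groups did not overlap for 15 of the 15 higher-signal miRNAs and for 4 of the 5 lower-signal ones, the exception being miR-702-5p, where over all mature miRNAs 15.9% lay wholly above and 3.71% wholly below the untreated arrays. limma (a moderated linear model over all 728 miRNAs) with Benjamini-Hochberg adjustment called 0 of the 20 at an adjusted p under 0.05, as it called 0.0% of all mature miRNAs in either direction, and the adjusted p of the 20 ran from 0.228 to 0.310. At an unadjusted p under 0.05 limma called 20 of the 20, but 15 after quantile normalization, 14 with a floor of 4 log2 and 16 to 20 when an array was left out, where the authors' note sheet gives an unadjusted p under 0.05 as their own criterion for the list, against 12.1% higher and 2.47% lower over all mature miRNAs.

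**Figure D1:**
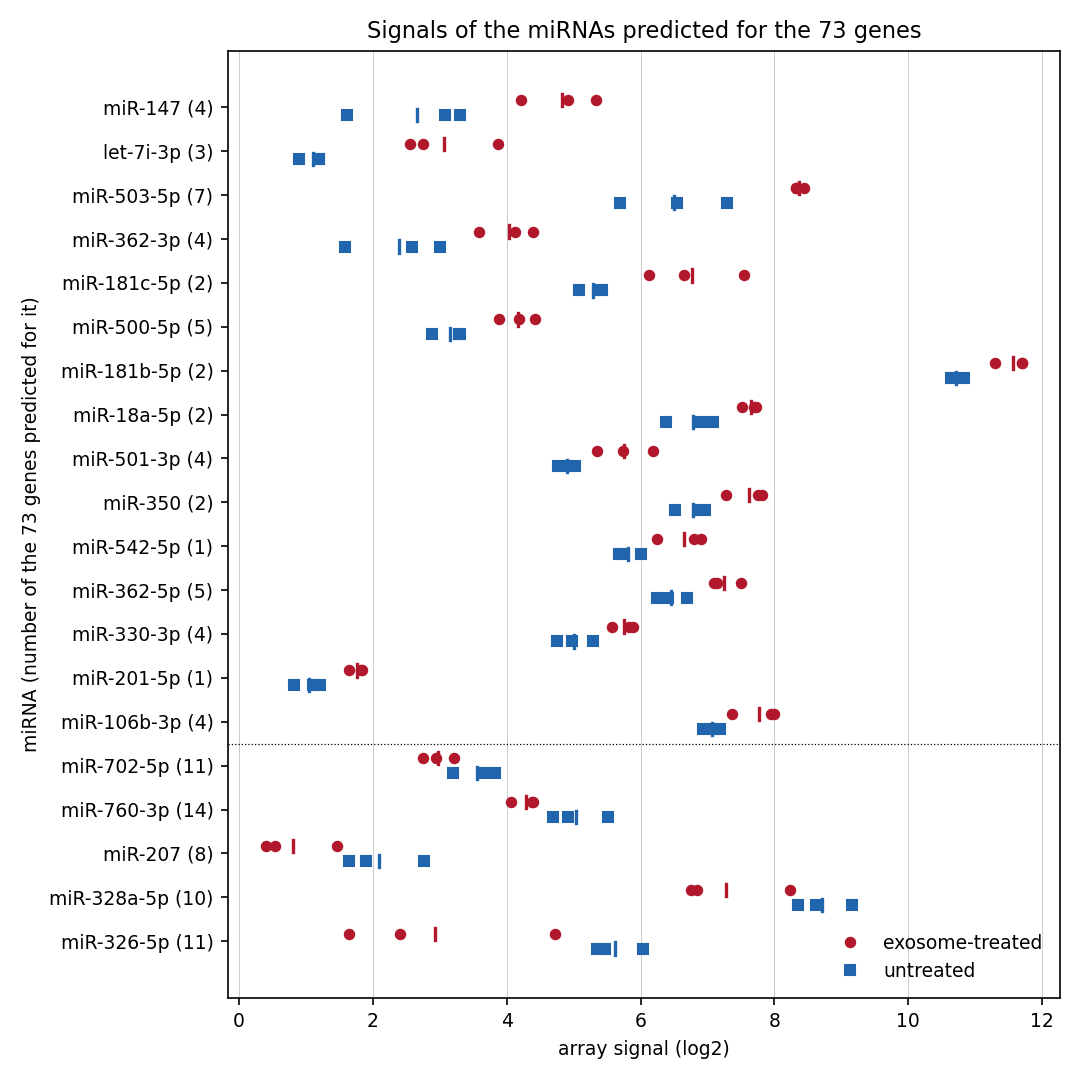
Signal on each array (log2, horizontal axis) of the 20 miRNAs predicted for the 73 genes, with the number of those genes in brackets; circles are exosome-treated and squares untreated CSCs, and short bars are group means (n = 3 each). Above the dotted line all exosome-treated arrays lie to the right of the untreated ones; below it they lie to the left, except that 1 array of each group overlaps for miR-702-5p.

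Some of these sizes depend on how the arrays are scaled or on dim signals. Quantile normalization, which took the median difference of the 171 miRNAs with a mean of at least 5 from 0.39 to 0.05 log2, left differences of 1.22 for miR-503-5p, 0.52 for miR-181b-5p and miR-501-3p, 0.38 for miR-542-5p, 0.32 for miR-330-3p, 0.29 for miR-350, 0.28 for miR-362-5p, 0.23 for miR-18a-5p and 0.15 for miR-106b-3p. With a floor of 4 log2 on every signal, differences were 0.82 for miR-147, 0.20 for miR-500-5p, 0.17 for miR-362-3p and -1.38 for miR-326-5p. The signals of miR-201-5p, miR-207, miR-702-5p and let-7i-3p lay under 4 on all arrays and could not be tested that way. Leaving out exosome replicate 3 brought 7 of the 20 to a limma adjusted p under 0.05, beside 23 of all 728 mature miRNAs. The 20 had been listed by the authors from these same arrays, so the 2 shares are not alike in origin. Exosome replicate 3 was also the treated array most like the untreated ones, so leaving it out favours larger differences and a smaller treated spread. The 7 are therefore not taken as miRNAs called different. Among the 7 the lowest limma adjusted p was 0.00791 (miR-326-5p) and the highest 0.0452 (miR-106b-3p). Between them were miR-328a-5p, miR-181b-5p, miR-181c-5p, miR-542-5p and let-7i-3p. Leaving out any other array brought 0 of the 20. Without exosome replicate 3 the differences were -3.60 log2 for miR-326-5p and -1.91 for miR-328a-5p. They were 0.90 for miR-106b-3p, 0.99 for miR-181b-5p, 1.03 for miR-542-5p, 1.80 for miR-181c-5p and 2.21 for let-7i-3p. These 7 were larger than with all arrays, although let-7i-3p was called detected on 0 untreated arrays. Smaller ones were -0.65 for miR-760-3p (-0.76 with all arrays), 0.69 for miR-330-3p (0.75) and 0.82 for miR-18a-5p (0.86). Those of miR-362-3p and miR-500-5p also fell slightly. The rest of the 20 had larger differences, and all 20 kept their direction without this array. Without it miR-760-3p had an unadjusted p of 0.0583 by limma, the highest of the 20.

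The 73 genes formed 104 pairs with these miRNAs, 50 with higher-signal and 54 with lower-signal miRNAs. The lower-signal share was 51.9%, beside 54.7% over all 6133 pairs of the table. Higher-signal miRNAs alone were predicted for 31 genes (42.5%, beside 36.9% of all 4260), lower-signal miRNAs alone for 28 (38.4%, beside 46.0%), and both kinds for 14 (19.2%, beside 17.1%). A single miRNA was predicted for 50 of the 73 (68.5%, beside 69.3%), 17 had 2, 4 had 3, and Ccnd1 and Cdc2l6 had 4. No enrichment was tested, and these shares lie close to those of the whole table. The miRNAs with most of the 73 genes were miR-760-3p with 14, miR-326-5p and miR-702-5p with 11 each, miR-328a-5p with 10, miR-207 with 8 and miR-503-5p with 7. In that order these were 1.87%, 1.56%, 2.17%, 1.49%, 1.11% and 2.46% of all genes predicted for each miRNA. The 73 genes are 1.71% of the table. For let-7i-3p the 3 genes were among only 25 predicted, whereas miR-760-3p had 748.

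**Figure D2:**
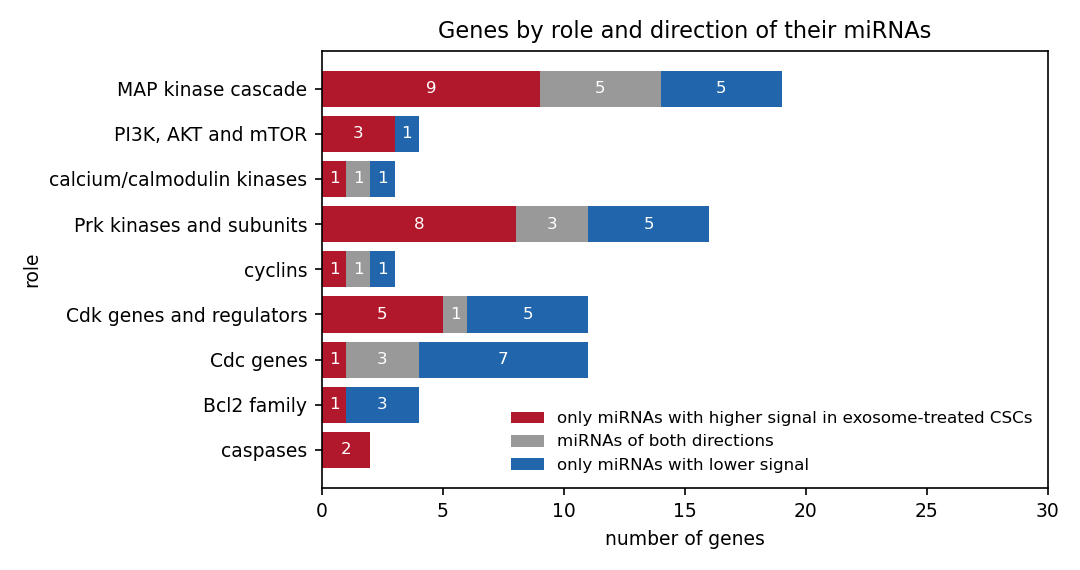
Number of genes in each role (horizontal axis), divided into genes predicted only for miRNAs with higher signal in exosome-treated CSCs, for miRNAs of both directions, and only for miRNAs with lower signal. The last class holds 7 of 11 Cdc genes and 3 of 4 Bcl2 genes, beside 46.0% of all 4260 genes, and the first holds both caspases, beside 36.9%; roles were not tested.

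The 3 cyclins in the table were Ccnd1, Ccnd3 and Ccna1. Ccnd1 encodes cyclin D1, which activates Cdk4 and Cdk6 early in the cycle, and it was the only cyclin predicted for more than 1 miRNA: the higher-signal miR-503-5p and the lower-signal miR-326-5p, miR-328a-5p and miR-702-5p. Its 4 sites are shown 5′ to 3′ with the bases opposite miRNA positions 2 to 8 in capitals, because they bring both directions together in 1 mRNA.
Ccnd1 with miR-503-5p: tttcatgttgttttCGCTGCTa
Ccnd1 with miR-326-5p: atgttatgggccctCTGCCCCc
Ccnd1 with miR-328a-5p: atgggccctcTGCCCCCc
Ccnd1 with miR-702-5p: gtggccctgcagcCCACTCAc
All 4 pair with the whole seed by Watson-Crick rules. Scores and energies here and below are the authors' miRanda values, a higher score meaning more pairing and a lower energy a more stable duplex. The miR-503-5p site had a score of 170 and an energy of -27.09, and lay at 1849 to 1870 in the sequence searched. The sites of miR-326-5p (675 to 696, score 151) and miR-328a-5p (680 to 697, score 159) shared 17 bases, so the 4 miRNAs used 3 separate stretches. At -36.33 the miR-328a-5p site had the lowest energy of any site in the 3 cyclins.

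The miRNAs of Ccnd1 had opposite differences on the arrays. The signal of miR-503-5p, of the extended miR-15/16 family, which is known in human and mouse cells to repress cyclin D1 and Cdc25a, was 8.33, 8.44 and 8.32 log2 in exosome-treated CSCs, against 7.29, 6.54 and 5.69 in untreated CSCs. The 3 treated arrays lay close together and above the widely spread untreated ones (1.85 ± 0.39 log2, SE; limma adjusted p = 0.228). The signal of miR-326-5p was 1.64, 2.41 and 4.72 log2 in exosome-treated CSCs, against 6.04, 5.47 and 5.35 in untreated CSCs. Here the treated arrays were the spread ones, and each lay below every untreated array (-2.70 ± 0.77 log2, SE; limma adjusted p = 0.288). The signal of miR-328a-5p was 6.85, 6.76 and 8.23 log2 in exosome-treated CSCs, against 9.16, 8.35 and 8.62 in untreated CSCs. The groups were apart by the gap between treated replicate 3 and untreated replicate 2 (-1.43 ± 0.44 log2, SE; limma adjusted p = 0.288). The signal of miR-702-5p was 2.94, 2.75 and 3.21 log2 in exosome-treated CSCs, against 3.65, 3.82 and 3.19 in untreated CSCs. These were dim and overlapped (-0.59 ± 0.21 log2, SE; limma adjusted p = 0.310).

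Ccnd3, encoding cyclin D3, was predicted for miR-702-5p alone (score 153), with a fully paired seed and an A opposite position 1. Ccna1, encoding the germ-line cyclin A1, was predicted for miR-181b-5p alone (score 152), with a G:U wobble in the seed. The signal of miR-181b-5p was 11.70, 11.70 and 11.29 log2 in exosome-treated CSCs, against 10.83, 10.66 and 10.64 in untreated CSCs. Its groups did not overlap (0.86 ± 0.16 log2, SE; limma adjusted p = 0.228).

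Among the 11 Cdk genes, 5 were predicted only for higher-signal miRNAs, 5 only for lower-signal ones and 1 for both. Over all genes of the table these shares were 36.9%, 46.0% and 17.1%. The kinases were Cdk6, the partner of D cyclins, for the higher-signal miR-330-3p (score 161), and Cdk2 and Cdk7 for the lower-signal miR-207 (score 156) and miR-702-5p (score 161). Cdk7 is the kinase that activates other Cdks. The 3 Cdk inhibitors were divided as well. Cdkn1a, encoding p21, was predicted for the lower-signal miR-328a-5p and miR-760-3p, whereas Cdkn1b, encoding p27, was predicted for let-7i-3p and Cdkn2c, an inhibitor of Cdk4 and Cdk6, for miR-18a-5p, both higher-signal miRNAs. The sites in the inhibitors, in Cdk6 and in Cdk2 are shown because they differ in seed pairing.
Cdkn1a with miR-328a-5p: tatactctgccTGCCCCCt
Cdkn1a with miR-760-3p: agcgtaccgtcCAGAGCCt
Cdkn1b with let-7i-3p: gcattggatgtagcaTTGCGCAa
Cdkn2c with miR-18a-5p: ttatttgtcctgatGCATCTTt
Cdk6 with miR-330-3p: cagctgctgggccTGCTTTGg
Cdk2 with miR-207: gtagtggaagcgagctAGGAGACa
The sites in Cdkn1a, Cdkn1b and Cdk6 pair fully with the seed. The site in Cdkn2c has 1 wobble there and the site in Cdk2 has 1 mismatch. Cdkn1a had scores of 159 and 152 and energies of -29.27 and -20.39 for miR-328a-5p and miR-760-3p.

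The signal of let-7i-3p was 2.75, 3.87 and 2.56 log2 in exosome-treated CSCs, against 1.2, 1.2 and 0.90 in untreated CSCs. It was called detected on 3 treated arrays and on 0 untreated arrays, so no fold is given, and its log2 difference above is not read as one (limma adjusted p = 0.228). The signal of miR-18a-5p was 7.51, 7.70 and 7.73 log2 in exosome-treated CSCs, against 7.08, 6.91 and 6.38 in untreated CSCs (0.86 ± 0.21 log2, SE; limma adjusted p = 0.248). The signal of miR-330-3p was 5.58, 5.82 and 5.88 log2 in exosome-treated CSCs, against 4.75, 4.97 and 5.29 in untreated CSCs (0.75 ± 0.18 log2, SE; limma adjusted p = 0.248). For both miRNAs the treated arrays lay above the untreated ones. The signal of miR-760-3p was 4.38, 4.40 and 4.07 log2 in exosome-treated CSCs, against 4.69, 4.91 and 5.52 in untreated CSCs (-0.76 ± 0.24 log2, SE; limma adjusted p = 0.291). The signal of miR-207 was 0.54, 0.40 and 1.46 log2 in exosome-treated CSCs, where it was called detected on 0 arrays, against 2.76, 1.89 and 1.64 in untreated CSCs, where it was detected on 3 (limma adjusted p = 0.288). Both were lower on every treated array, and miR-207 was near the bottom of the scale throughout.

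The remaining Cdk genes were regulators. The Cdk5 activators Cdk5r1 and Cdk5r2 were predicted for miR-500-5p (score 151) and miR-326-5p (score 152), of opposite direction. Cdk2ap1, a Cdk2-associated protein, was predicted for miR-201-5p, the only one of the 73 genes for that miRNA, and Cdkn2aipnl for miR-501-3p and miR-760-3p with a score of 154 for both. The signal of miR-201-5p was 1.82, 1.83 and 1.65 log2 in exosome-treated CSCs, against 1.21, 1.10 and 0.82 in untreated CSCs, dim in both but apart (0.72 ± 0.15 log2, SE; limma adjusted p = 0.228). The symbol Cdk105, predicted for miR-702-5p with a score of 167, is an older name of Nsa2 in RefSeq (assembly GRCr8), a ribosome biogenesis factor and not a kinase.

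Of the 11 Cdc genes, 7 were predicted for lower-signal miRNAs alone, 3 for both kinds and 1 for higher-signal ones alone, beside 46.0%, 17.1% and 36.9% of all genes of the table, a difference that was not tested. Cdc2l6, named Cdk19 in RefSeq and a kinase of the Mediator complex, had 5 sites for 4 miRNAs: the higher-signal miR-542-5p (score 165) and the lower-signal miR-326-5p, miR-328a-5p and miR-760-3p (scores 157, 154 and 153). The phosphatases Cdc25a and Cdc25c, which activate Cdks, were divided: Cdc25a was predicted for miR-503-5p and Cdc25c for miR-207. The first of these sites is shown because the family of its miRNA is known in human and mouse cells to repress the gene. Whether the site itself matches one in those species was not checked. The second has the highest score of the Cdc genes, and the last 2 lie on top of each other.
Cdc25a with miR-503-5p: ctgtagactggtatTGCTGCTa
Cdc25c with miR-207: ctacggaggcaaaggcAGGAGAAt
Cdc2l6 with miR-542-5p: ctcagaagtgtatggTCCCCGAg
Cdc2l6 with miR-326-5p: taccccaagcccaCTGCCCCc
Cdc2l6 with miR-328a-5p: caagcccacTGCCCCCc
The Cdc25a site has a wobble in the seed and a score of 151, the lowest in the table, with an energy of -29.22. The Cdc25c site pairs fully, with a score of 172. In Cdc2l6 the sites of miR-326-5p (3824 to 3844) and miR-328a-5p (3829 to 3845) shared 16 bases. The signal of miR-542-5p was 6.90, 6.80 and 6.24 log2 in exosome-treated CSCs, against 5.76, 6.01 and 5.68 in untreated CSCs, without overlap (0.83 ± 0.21 log2, SE; limma adjusted p = 0.276).

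Cdc42, a small GTPase of the actin cytoskeleton, and 4 genes for proteins that bind it were among the 11 Cdc genes. Cdc42 was predicted for miR-147 (score 159) and miR-760-3p (score 156) at overlapping sites. Cdc42se1, a small effector, was predicted for miR-147, miR-326-5p and miR-328a-5p at 3 separate places, with scores of 151, 151 and 152. Cdc42ep1, another effector, was predicted for miR-326-5p and miR-328a-5p (score 151 for both), and the kinases Cdc42bpb and Cdc42bpg for miR-760-3p and miR-207. Of these 5 genes 0 were predicted for higher-signal miRNAs alone, beside 36.9% of all genes of the table. The others were Cdc14b, a phosphatase, and Cdc34, a ubiquitin-conjugating enzyme, for miR-702-5p (scores 156 and 170), and Cdc40, a splicing factor, for miR-760-3p (score 153). The signal of miR-147, which responds to Toll-like receptors in mouse macrophages, was 4.92, 5.33 and 4.21 log2 in exosome-treated CSCs, against 3.08, 3.30 and 1.61 in untreated CSCs. All treated arrays lay above 4 and all untreated ones below it (2.16 ± 0.51 log2, SE; limma adjusted p = 0.248).

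Apoptosis genes were few, with 4 of the Bcl2 family and 2 caspases. Of the Bcl2 family, Bcl2 and Bcl2l1 (Bcl-xL), which protect cells from apoptosis, were predicted only for lower-signal miRNAs, as was Bcl2l10, while Bcl2l2 (Bcl-w), also protective, was predicted for the higher-signal miR-362-5p. The initiator caspases Casp9, which the apoptosome activates, and Casp2 were predicted only for higher-signal miRNAs. Over all genes of the table, 46.0% had lower-signal miRNAs alone and 36.9% higher-signal ones alone, and these few genes were not tested against that. Bcl2l1 was predicted for 3 miRNAs: miR-702-5p at 4 to 23, miR-328a-5p at 29 to 47 and miR-760-3p at 491 to 510. The sites of all 6 genes are shown, apart from a second site in Bcl2l10.
Bcl2l1 with miR-702-5p: gacactgaccgtCCACTCAc
Bcl2l1 with miR-328a-5p: acctcccacctTGCCCCCa
Bcl2l1 with miR-760-3p: ccccccccccccCAGAGCCa
Bcl2 with miR-326-5p: ggtcagcagacCTGCCCCa
Bcl2l10 with miR-760-3p: aaaccccagagccCAGAGCCc
Bcl2l2 with miR-362-5p: gatcagggcttgtggttcCAAGGAAg
Casp9 with miR-500-5p: gaactgtcccgtgaagCAAGGATt
Casp2 with miR-330-3p: gacctccaagaaccctctTGCTTTGc
Casp2 with miR-181c-5p: atgcagtgacaggTGAGTGTg
The sites in Bcl2l1, Bcl2 and Bcl2l10 and those of Casp9 and of Casp2 with miR-330-3p pair fully with the seed. The site in Bcl2l2 has 1 mismatch and the site of Casp2 with miR-181c-5p has 1 wobble. Scores were 155, 155 and 158 for the 3 sites in Bcl2l1, 152 for Bcl2, 168 for the Bcl2l10 site shown (it has a second, of 151), 152 for Bcl2l2, 161 for Casp9 and 154 and 153 for Casp2. The miR-760-3p site in Bcl2l1 opens with a run of C outside the seed match.

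Behind the caspases and Bcl2l2 stood 3 miRNAs not yet described. The signal of miR-500-5p was 3.89, 4.42 and 4.18 log2 in exosome-treated CSCs, against 3.29, 3.30 and 2.88 in untreated CSCs (1.01 ± 0.20 log2, SE; limma adjusted p = 0.228). The signal of miR-362-5p was 7.10, 7.50 and 7.15 log2 in exosome-treated CSCs, against 6.25, 6.70 and 6.41 in untreated CSCs (0.80 ± 0.18 log2, SE; limma adjusted p = 0.248). Neither overlapped between groups. The signal of miR-181c-5p was 7.54, 6.65 and 6.13 log2 in exosome-treated CSCs, against 5.08, 5.38 and 5.42 in untreated CSCs. The treated arrays were spread over more than 1 log2 and all lay above the untreated ones (1.48 ± 0.36 log2, SE; limma adjusted p = 0.248).

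**Figure D3:**
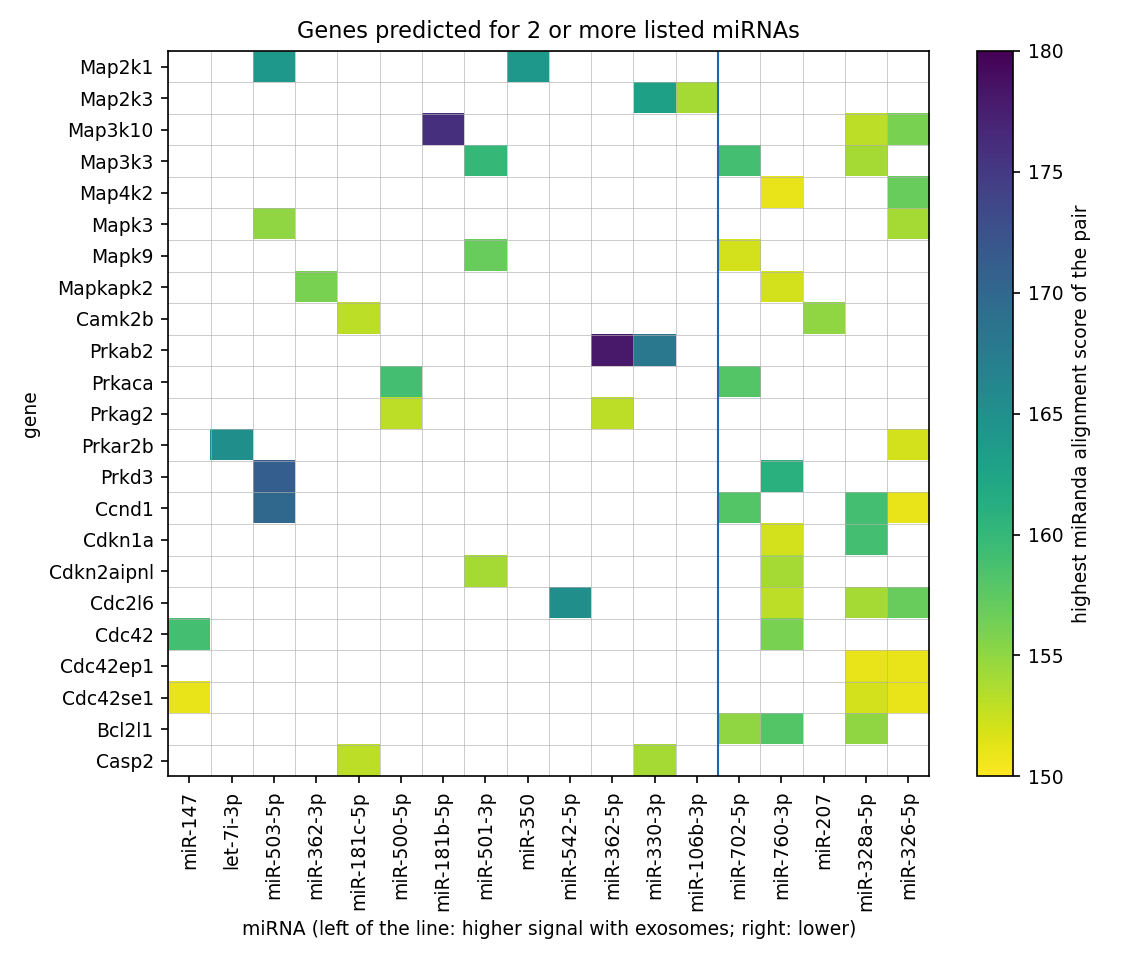
Genes predicted for 2 or more of the listed miRNAs (rows, ordered by role) against the miRNAs (columns, ordered by difference in signal, with higher-signal miRNAs left of the line); colour gives the highest alignment score of the pair. Map2k1, Map2k3, Prkab2, Prkag2 and Casp2 have filled cells only to the left, and Map4k2, Cdkn1a, Cdc42ep1 and Bcl2l1 only to the right.

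The MAP kinase cascade was the largest role, with 19 genes, 29 pairs and 30 sites. Higher-signal miRNAs alone were predicted for 9 of the genes (47.4%, beside 36.9% of all genes of the table). Both kinds were predicted for 5 (26.3%, beside 17.1%) and lower-signal miRNAs alone for 5 (26.3%, beside 46.0%), differences that were not tested. At the Map2k level, Map2k1 (MEK1, which activates ERK) was predicted for miR-350 and miR-503-5p, and Map2k3 (which activates p38) for miR-106b-3p and miR-330-3p, all higher-signal miRNAs. At the Map3k level only Map3k9 (for miR-18a-5p) lacked a lower-signal miRNA, whereas Map3k8, Map3k11 and Map3k14 had lower-signal miRNAs alone and Map3k3 and Map3k10 had both. Of the terminal kinases, Mapk14 (p38 alpha) was predicted for miR-501-3p, Mapk3 (ERK1) for miR-503-5p and miR-326-5p, and Mapk9 (JNK2) for miR-501-3p and miR-702-5p. At the Map4k level Map4k4 had miR-362-3p and Map4k2 had miR-326-5p and miR-760-3p. The sites of the Map2k and Map3k kinases with the most miRNAs or the highest scores are shown.
Map2k1 with miR-503-5p: tcttactgatgtttgCGCTGCTg
Map2k1 with miR-350: ccctaagtggattggcTTTGTGCt
Map2k3 with miR-330-3p: tctttgttgcctttTGCTTTGt
Map3k10 with miR-181b-5p: gcccgcctgggcagccaTGAATGTa
Map3k10 with miR-326-5p: agcattaaaggtaacccCTGCCCCc
Map3k10 with miR-328a-5p: aaggtaaccccTGCCCCCt
Map3k3 with miR-501-3p: gccaggcctgggtcaGGTGCATg
Map3k3 with miR-328a-5p: cgccaccctccTGCCCCTc
Map3k3 with miR-702-5p: cctcctgcccctcCCACTCAc
Map3k11 with miR-207: gcagggagggggtccAGGGGAAa

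Map3k10, a mixed-lineage kinase upstream of JNK, held the highest score of the cascade, 176 for miR-181b-5p with an energy of -31.64. Its other sites, for miR-326-5p (256 to 280) and miR-328a-5p (263 to 281), shared 18 bases. Map3k3 (MEKK3) had its 3 sites within a short stretch: miR-501-3p at 2249 to 2271, miR-328a-5p at 2277 to 2295 and miR-702-5p at 2283 to 2303, the last 2 sharing 13 bases. Map3k11, another mixed-lineage kinase, had the lowest energy of the 109 sites, -36.88, with a score of 173 for miR-207 and 1 wobble in the seed. Map2k1 scored 164 for both of its miRNAs, with a mismatch in the seed for miR-350 and full pairing for miR-503-5p. Map2k3 scored 163 for miR-330-3p and, with a seed mismatch, 154 for miR-106b-3p.

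The other genes of the cascade were adaptors and downstream kinases. The JNK scaffolds Mapk8ip1 and Mapk8ip2 were predicted for miR-760-3p (score 161) and miR-503-5p (score 165). Mapkapk2, a kinase that p38 activates, was predicted for miR-362-3p and miR-760-3p. Map2k1ip1 (Lamtor3 in RefSeq, a MEK1 scaffold) and Map3k7ip2 (Tab2, an adaptor of the kinase TAK1) were both predicted for miR-106b-3p, and Mapk1ip1l for miR-350. The signal of miR-106b-3p was 7.95, 7.99 and 7.36 log2 in exosome-treated CSCs, against 6.93, 7.19 and 7.10 in untreated CSCs (0.70 ± 0.21 log2, SE; limma adjusted p = 0.288). The signal of miR-350 was 7.76, 7.82 and 7.28 log2 in exosome-treated CSCs, against 6.86, 6.96 and 6.51 in untreated CSCs (0.84 ± 0.21 log2, SE; limma adjusted p = 0.248). In both, treated replicate 3 lay nearest to the untreated arrays without reaching them. The signal of miR-501-3p was 5.74, 6.18 and 5.35 log2 in exosome-treated CSCs, against 4.92, 4.76 and 5.02 in untreated CSCs (0.85 ± 0.23 log2, SE; limma adjusted p = 0.288). The signal of miR-362-3p was 3.58, 4.39 and 4.13 log2 in exosome-treated CSCs, against 2.58, 3.00 and 1.58 in untreated CSCs (1.65 ± 0.40 log2, SE; limma adjusted p = 0.248). These also did not overlap.

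**Figure D4:**
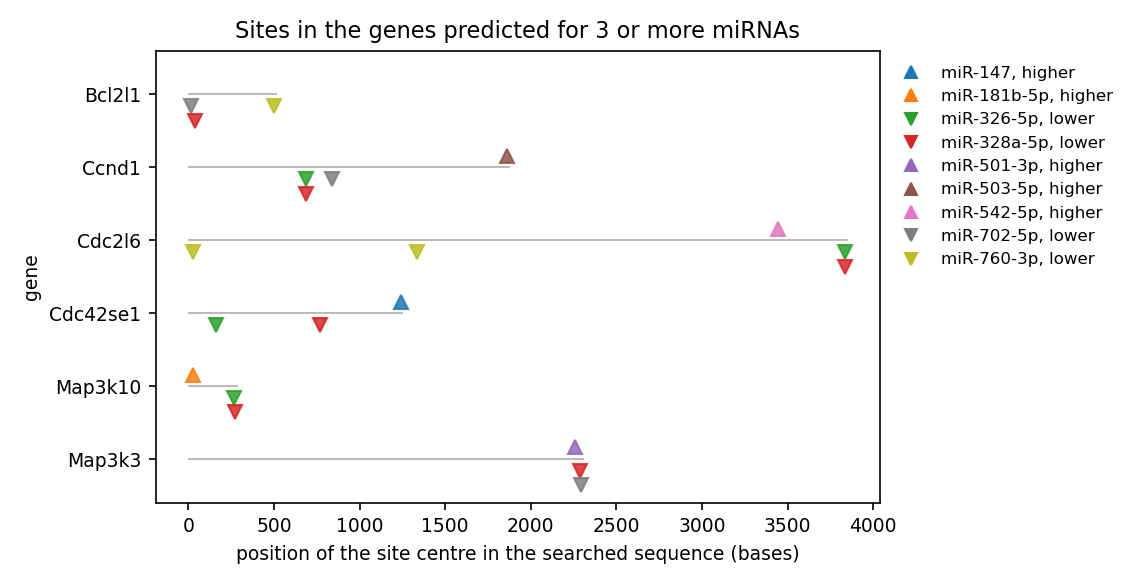
Position of each predicted site (centre, in bases from the start of the sequence searched) in the 6 genes predicted for 3 or more miRNAs; upward triangles are miRNAs with higher and downward triangles with lower signal in exosome-treated CSCs, stacked where sites of 1 direction lie within 60 bases. Grey lines end at the last site, not at the end of the sequence. The miR-326-5p and miR-328a-5p sites coincide in Ccnd1, Cdc2l6 and Map3k10 and are apart in Cdc42se1.

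The PI3K, AKT and mTOR role had 4 genes with 1 miRNA each. Mtor itself was predicted for miR-362-5p (score 152, with 1 wobble in the seed). Akt1s1, encoding PRAS40, an inhibitory partner of mTOR and substrate of AKT, was predicted for miR-147 (score 170). Pik3cd, a catalytic PI3K subunit, was predicted for miR-362-5p (score 166) and Pik3c2g, a class II PI3K, for the lower-signal miR-207 (score 158). No Akt kinase gene was among the 4. The sites are shown to set the inhibitor beside its target and the PI3K subunit.
Akt1s1 with miR-147: caacagaagctttgcCCGCACAg
Mtor with miR-362-5p: tcagacgcctggccacCGAGGATg
Pik3cd with miR-362-5p: tggcacacaatgtgtcCAAGGATa

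The Prk genes, 16 in all, comprised 4 subunits of the AMP-activated kinase (AMPK, an energy sensor), 4 subunits of protein kinase A, 5 protein kinase C isoforms, 2 protein kinase D genes and Prkcdbp. The last is named Cavin3 in RefSeq, a caveolar coat protein that binds protein kinase C delta, and was predicted for miR-326-5p. Of the AMPK subunits, Prkab1 (for miR-106b-3p), Prkab2 and Prkag2 were predicted only for higher-signal miRNAs and Prkag1 for miR-207. Prkab2 held the highest score among the 73 genes, 178 for miR-362-5p, and had 2 further sites for miR-330-3p with scores of 168 and 155. Prkag2 was predicted for miR-362-5p and miR-500-5p, the miRNAs with 1 seed, at the same place (828 to 851 and 826 to 851), so its 2 miRNAs used 1 stretch. The sites are shown for that reason, with those of Prkd3 because both directions met in it.
Prkab2 with miR-362-5p: tatcactccttgcctcCAAGGATt
Prkab2 with miR-330-3p: cctctggtaggagctcTGCTTTGc
Prkag2 with miR-362-5p: aaacaggccgaggtcgCAGGGATg
Prkag2 with miR-500-5p: ggaaacaggccgaggtcgCAGGGATg
Prkd3 with miR-503-5p: gttcagtatccctatttcCGCTGCTc
Prkd3 with miR-760-3p: acacttcagctcCAGAGCCa
The Prkag2 sites have a wobble in the seed and a score of 153 each. The Prkd3 sites scored 171 and 161 and lay apart, at 1139 to 1164 and 1092 to 1111.

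Among the protein kinase A subunits, the catalytic Prkaca was predicted for miR-500-5p (score 159) and miR-702-5p (score 158), Prkar2b for let-7i-3p (score 165, energy -33.07) and miR-326-5p (score 152), Prkar1b for miR-702-5p and Prkar2a for 2 overlapping sites of miR-503-5p. Of the protein kinase C isoforms, Prkch, Prkci and Prkcz were predicted for the higher-signal miR-362-3p, let-7i-3p and miR-500-5p, and Prkcb and Prkcd for the lower-signal miR-760-3p and miR-328a-5p. Prkd2 was predicted for miR-147. Of the calcium/calmodulin kinase genes, Camk2b, a subunit of CaMKII, was predicted for miR-181c-5p (score 153) and miR-207 (score 155). Camkv, a kinase-like vesicle protein without known kinase activity, was predicted for miR-362-3p (score 162), and Camk1g for miR-328a-5p (score 153).

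Seed pairing was read from the deposited alignments. Of the 109 sites, 76 (69.7%) paired with miRNA positions 2 to 8 without a wobble, mismatch or bulge, 28 had only wobbles there and 5 had a mismatch. Over all 6476 sites of the table the fully paired share was 69.6%. It was 57.7% for the 52 sites of higher-signal miRNAs, beside 64.6% over the table, and 80.7% for the 57 sites of lower-signal miRNAs, beside 73.5%. The Prk genes stood lowest of the larger roles at 12 of 23 sites, all 8 of their lower-signal sites being fully paired and 4 of their 15 higher-signal ones. All 11 sites of miR-326-5p and all 11 of miR-702-5p were fully paired, against 4 of 8 for miR-503-5p and 0 of 2 for miR-18a-5p. The shares of single miRNAs over the whole table were not counted, so these counts are not read as particular to the 73 genes. An A opposite position 1 in addition to full pairing, the strongest canonical site class, was found in 18 of the 109 sites (16.5%, beside 1102 of all 6476). In the Bcl2 family it was found in 4 of 7 sites: Bcl2 with miR-326-5p, Bcl2l1 with miR-328a-5p and miR-760-3p, and the second Bcl2l10 site.

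Scores of the 109 sites ran from 151 to 178 with a median of 155, and energies from -36.88 to -20.07 with a median of -24.98. Over the table the medians were 156 and -24.83. The median energy was -23.84 for sites of higher-signal miRNAs and -25.95 for those of lower-signal miRNAs, beside -23.02 and -26.54 over the table. The lower-signal miRNAs hold more G and C, 56.5% to 78.9% of their bases, against 40.9% to 63.6% for the 15 higher-signal ones, and their sites had a median G and C content of 64.7%, against 53.8%. Of the sites with a score of at least 160, 19 pairs were with higher-signal and 8 with lower-signal miRNAs, whereas at an energy of at most -25 there were 19 and 33, so the direction with more pairs depended on which of the 2 measures was made stricter. Counts under these limits were not made for the whole table. There too, sites of higher-signal miRNAs had the higher median score (157, against 155) and those of lower-signal miRNAs the lower median energy.

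**Figure D5:**
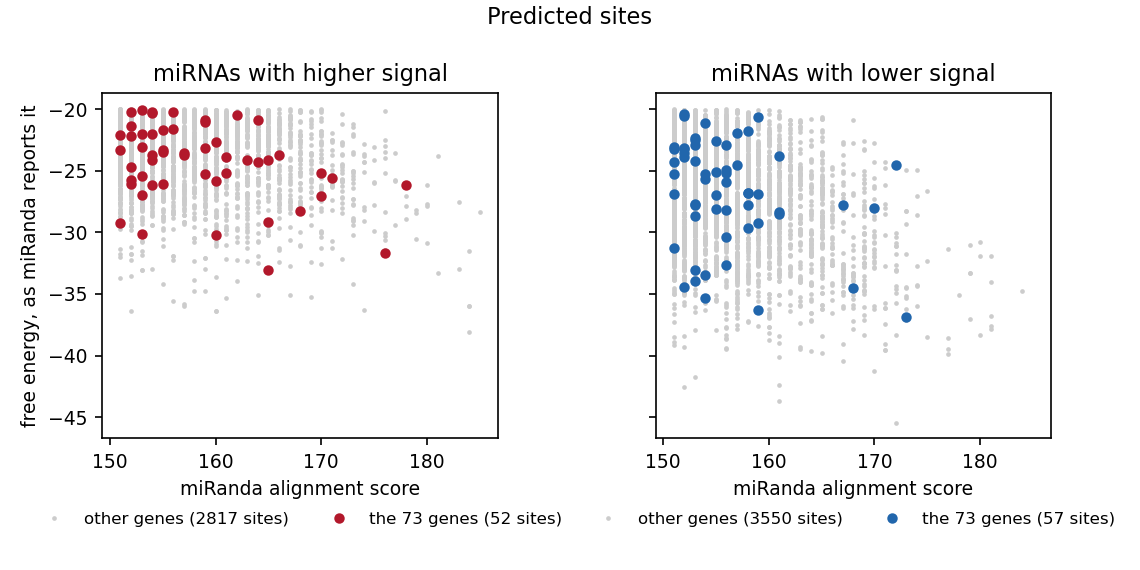
Alignment score (horizontal axis) against free energy (vertical axis) of each predicted site for miRNAs with higher (left) and lower (right) signal in exosome-treated CSCs; coloured points are the sites in the 73 genes and grey points those in all other genes of the table. The coloured points lie within the spread of the grey ones in both panels.

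Overlapping sites reduced the number of independent predictions. Of the 23 genes predicted for 2 or more miRNAs, Cdc42 and Prkag2 had their sites in 1 stretch, and Ccnd1, Cdc2l6, Map3k10 and Map3k3 each had 2 miRNAs in a shared stretch. miR-326-5p and miR-328a-5p, with offset seeds, were predicted together for 5 of the 73 genes (5 of 11 and 5 of 10), and over the table for 156 genes, or 22.1% and 23.2% of their lists. In 3 of the 5 the sites overlapped. miR-362-5p and miR-500-5p shared 1 of 5 genes each, and miR-181b-5p and miR-181c-5p shared 0 of 2, although each pair has 1 seed. None of the 109 sites was listed at the same place under a second gene symbol.

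Predictions for several of the genes rest on dim miRNAs. For 16 of the 73 genes no miRNA reached a mean of 4 log2 in either group: these had only miR-207, miR-702-5p, miR-201-5p or let-7i-3p. For 9 of the 73 none of the miRNAs was called detected on all 6 arrays.

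Of 47 further genes of these pathways outside the symbol rule, 14 were in the table, 7 with higher-signal miRNAs only, 5 with lower-signal ones only and 2 with both. Over all genes of the table these shares were 36.9%, 46.0% and 17.1%, and the 14 genes were not tested against them. Irs2, an insulin receptor adaptor, was predicted for miR-362-3p, miR-326-5p and miR-760-3p, Nras for miR-503-5p and miR-328a-5p, and Bak1, a pro-apoptotic pore protein, for miR-330-3p and miR-500-5p. The pro-apoptotic Bad and Bbc3 (Puma) were predicted for miR-330-3p (score 161) and miR-106b-3p (score 163), and Diablo, which releases caspases from inhibition, for miR-760-3p (score 156). Rps6kb1, Irs1 and the transcription factor E2f1 had 1 higher-signal miRNA each, as had Araf with miR-872-3p, and Insr, Sos1, Grb2 and Dusp1 had 1 lower-signal miRNA each. The other 33, among them Rb1, Mdm2, Bax and Mcl1, had no pair in the table. The sources used here do not say which sequences were searched.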

How the data were processed

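Total RNA was hybridised to Affymetrix miRNA arrays. The deposited values are log2 signals, per the authors' note sheet. The file headers name RMA with detection above background, while MAS5 and Affymetrix Expression Console appear in the submitters' processing notes, so the method is not settled. The authors' deposited table also holds geometric mean intensities, their ratio (fold), p-values and false discovery rates, not used here. Site scores and energies were deposited by the authors, whose miRanda limits were a score over 150 and an energy below -20, per their note sheet. Of the site table's lines, 18 were emptied before this work, and every pair of the 73 genes still has a site.

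The 728 mature probe sets were tested with limma 3.58.1 (lmFit, eBayes; R 4.3.3) as the exosome mean minus the untreated mean, with p-values adjusted by Benjamini-Hochberg and a threshold of 0.05, without further normalization. The test was checked on simulated arrays in which miRNAs varied independently and no array was shifted as a whole. That check does not cover an array that departs from its group, as treated replicate 3 did. Column medians ran from 0.61 to 0.72 log2, and 0 columns were left unmapped. The number of arrays limits precision. Errors of differences are limma's SE. Gene names were matched to RefSeq (68 by symbol, 5 by synonym). Target counts and figures used Python 3.11.15, pandas 2.3.3, numpy 2.4.6 and matplotlib 3.10.9. Replicate numbers were taken from the titles. Deviations of same-numbered arrays correlated at 0.035, 0.324 and 0.291, and those of differently numbered ones at -0.376 to 0.243. The labels state no pairing, so the main test was unpaired, and a replicate block was run as an alternative.

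The genes, lists and tests were chosen with earlier results of these data known. By the rule for named genes, values are given for genes with 3 or more miRNAs, up to 4 per role by number of miRNAs, and the 10 highest scores and 10 lowest energies. The other genes are named to account for every member. Alternatives were quantile normalization, a floor of 4, a filter at a mean of 2, a replicate block, leaving out each array, stricter scores and energies, and subsets of miRNAs. The restriction to fully paired seeds was added after seeing the data.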

Additional observations from a re-analysis of the deposited data

How the results depend on the processing

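Every difference of the 20 miRNAs kept its direction under each setting in which it could be computed. At an adjusted p under 0.05 limma called 0 of 728 mature miRNAs with all arrays (106 at an unadjusted p), and 0 to 23 when an array was left out, the 23 without exosome replicate 3 and 1 without untreated replicate 1. The unadjusted count was 68 after quantile normalization, 70 with a floor of 4, 61 without probe sets with a mean under 2, and 38 to 145 when an array was left out. Leaving out exosome replicate 2 gave the 38, and leaving out exosome replicate 1 gave 57. With the replicate block it was 111, and 0 passed adjustment. Each untreated array correlated best with the treated array of its own number, but treated replicate 1 correlated best with untreated replicate 2 (0.243 against 0.035), so the numbers give no more than a hint of pairing. With the block, 19 of the 20 miRNAs had an unadjusted p under 0.05, miR-702-5p being at 0.0721. Of the 20 miRNAs, 15 had an unadjusted p under 0.05 after quantile normalization, 10 higher-signal and 5 lower-signal, and 14 with the floor, where 4 could not be tested and miR-500-5p and miR-362-3p were at 0.258 and 0.310. Requiring a score of at least 160 left 24 of the 73 genes, with 19 pairs for higher-signal and 8 for lower-signal miRNAs. Requiring an energy of at most -25 left 38 genes, with 19 and 33 pairs. Restricting to miRNAs with an unadjusted p under 0.05 after quantile normalization left 31 of the 50 higher-signal pairs and all 54 lower-signal ones. Restricting to a mean of at least 4 left 35 lower-signal pairs, and fully paired seeds left 30 higher-signal pairs. The stricter scores, energies, means and seeds count fewer pairs by construction. For the other settings the cause was not tested.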
